A study of Mus musculus with 26 samples.

Results

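The pairs described here are neighbouring genes in which an estimate of read-in, transcription that runs on from an upstream gene into the gene downstream of it, appeared after 2 h of KCl. Members were selected on the deposited read-in estimate alone, from 6399 upstream and downstream pairs. It had to be exactly 0 in both control libraries, finite and above 0 in both libraries of 2 h of KCl, and not above 0 in both libraries of 2 h of H2O2. The rule gave 111 pairs, against 247 pairs that gained in both treatments and 329 that gained in H2O2 only. Calling them KCl-only holds in part: 34 of the 111 were at 0 in both H2O2 2 h libraries, and the other 77 were above 0 in 1 of them. They are therefore called the KCl gainers below, by the rule. Because the rule read the estimates of the control, KCl 2 h and H2O2 2 h RNA libraries, values from those libraries are a description and carry no test.

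The cells were NIH3T3, an established line of mouse embryonic fibroblasts. PolyA-selected RNA was sequenced in 16 libraries of 8 groups, and ribosome footprints, the mRNA fragments that ribosomes cover, in 10 libraries of 5 groups, with 2 replicates a group. The RNA groups were a control shared by both chemicals, osmotic stress (KCl) for 2 h or 7 h, oxidative stress (H2O2) for 2 h or 7 h, a separate control for heat, and heat at 44 °C for 2 h or 42 °C for 8 h. Footprints were used for the chemical groups only. Doses were not given in the sources used here, the labels name no genetic change, and each group is a pool of cells of 1 line, so fewer cells and less RNA per cell cannot be told apart. The labels do not say whether replicates came from separate cultures, so p-values measure only the spread between these libraries, which may be technical. Of 8 fibroblast markers, 8 were above 10 TPM in the control, and the summed TPM of 4 haematopoietic and 4 epithelial markers stayed at or below 44.8 and 19.6 in each RNA library, against at least 4147 for the fibroblast list. TPM is a level corrected for gene length and library size. RNA libraries held 24441877 to 45244430 expected counts and footprint libraries 1460751 to 5168537.

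RNA polymerase II normally stops after the 3′ end of a gene is cut and polyadenylated. Under osmotic, heat or oxidative stress this termination fails at many genes, and transcripts called DoGs (downstream of gene) extend past the gene end. When a DoG is long enough to cross into the next gene on the same strand, the reads it adds there can look like expression of that gene, although its own promoter may be silent. Raised extracellular KCl draws water out of cells and calls on NFAT5, which switches on genes for osmolytes and their transporters.

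The members lay close together in the genome. In the RefSeq annotation of GRCm38.p6, the same assembly as the mm10 build named in the submitters' processing notes, 102 of the 111 pairs could be placed. All 74 with both strands given were on the same strand, as were all 4055 such pairs of the series. The median distance between the upstream and the downstream gene was 14996.5 bases, against 38085 for all 5879 placed pairs, 48796 for the 2639 placed pairs at 0 in both control libraries and 9381.5 for the 234 placed pairs that gained in both H2O2 and KCl. Of the placed members 25 (24.5%) were at most 5000 bases apart, against 16.4% of all placed pairs and 7.92% of the pairs at 0 in control. The members' median thus lay between that of the pairs gaining in both treatments and that of all pairs. Their quartiles were 5413.25 and 33693.5 bases, and the largest distance was 1849804 bases (Ptbp2 / Snx7). These values carry no test.

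The sequence that the extended transcript would cross last is the downstream gene's own promoter. The 250 bases before the annotated start are shown for the 5 members of highest KCl 2 h estimate that had 1 start in RefSeq at the gene's 5′ end. Klhl33 (chr14:50897484-50897733, minus strand) encodes a kelch-like protein and lies 17890 bases beyond Osgep, a tRNA-modifying enzyme. Tulp1 (chr17:28365217-28365466, minus strand), a tubby-like protein of photoreceptors, lies 33536 bases beyond Fkbp5. Dusp2 (chr2:127335909-127336158, plus strand), a phosphatase that inactivates MAP kinases, lies 37223 bases beyond Stard7. Acta1 (chr8:123894776-123895025, minus strand), skeletal muscle actin, lies 2338 bases beyond Nup133, and C1ql3 (chr2:13010865-13011114, minus strand), a secreted C1q-like protein, lies 66102 bases beyond Rsu1. Each is given 5′ to 3′ on the gene's strand from RefSeq GRCm38.p6, and capitals mark the motifs searched on both strands.
Klhl33: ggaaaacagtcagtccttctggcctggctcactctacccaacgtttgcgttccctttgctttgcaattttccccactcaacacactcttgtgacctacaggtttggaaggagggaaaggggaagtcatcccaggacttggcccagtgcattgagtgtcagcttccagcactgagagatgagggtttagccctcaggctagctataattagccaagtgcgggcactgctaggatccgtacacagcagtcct
Tulp1: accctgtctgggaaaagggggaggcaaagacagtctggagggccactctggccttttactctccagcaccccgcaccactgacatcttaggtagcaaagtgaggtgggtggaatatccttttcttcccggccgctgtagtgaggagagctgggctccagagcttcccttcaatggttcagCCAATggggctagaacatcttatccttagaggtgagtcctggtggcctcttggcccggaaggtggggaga
Dusp2: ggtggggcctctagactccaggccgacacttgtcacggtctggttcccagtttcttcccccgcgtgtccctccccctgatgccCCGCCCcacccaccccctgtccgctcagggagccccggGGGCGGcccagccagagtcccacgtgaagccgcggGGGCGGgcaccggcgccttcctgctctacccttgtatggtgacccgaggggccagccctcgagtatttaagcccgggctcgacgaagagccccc
Acta1: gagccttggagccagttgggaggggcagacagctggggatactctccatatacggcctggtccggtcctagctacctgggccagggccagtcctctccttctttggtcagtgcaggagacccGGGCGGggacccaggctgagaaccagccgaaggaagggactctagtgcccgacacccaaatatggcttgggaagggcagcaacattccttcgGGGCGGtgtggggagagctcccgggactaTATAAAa
C1ql3: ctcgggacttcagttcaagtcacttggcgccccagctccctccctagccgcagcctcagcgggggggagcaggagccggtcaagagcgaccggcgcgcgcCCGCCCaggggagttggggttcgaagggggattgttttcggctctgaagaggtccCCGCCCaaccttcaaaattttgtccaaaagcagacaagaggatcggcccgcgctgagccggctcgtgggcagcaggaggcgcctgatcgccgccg

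The motif TATAAA is a TATA box. GGGCGG is a GC box. The CCAAT box was searched as these 5 letters. TGGAAA is the core that NFAT proteins read. The polyadenylation signal was searched as AATAAA. Klhl33 held none of the 5 and Tulp1 held CCAAT. Dusp2 and C1ql3 held GGGCGG, and Acta1 held the GC box together with the TATA box. Over windows of 300 bases around the start, available for 84 downstream genes (104 windows), GGGCGG was in 66.3% of the members' windows and 56.7% of those of all downstream genes. The shares for TATAAA were 9.62% and 8.502%, for CCAAT 36.5% and 36.5%, for TGGAAA 15.4% and 16.8%, and for AATAAA 13.5% and 11.6%. Across all 32851 windows of the table the 5 motifs were in 13.6% (TATAAA), 35.7% (GGGCGG), 37.4% (CCAAT), 21.4% (TGGAAA) and 19.6% (AATAAA). A match is a description of letters and not a binding site.

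At 2 h of KCl the estimate, a ratio deposited without its formula, varied widely. Its mean over the 2 libraries had a median of 0.0165 (quartiles 0.00462 and 0.141) and ran from 0.000343 to 2.59. Only 9 members reached a mean of 0.5, 22 lay between 0.1 and 0.5, 35 between 0.01 and 0.1, and 45 under 0.01. The larger of the 2 replicate values was in the median 1.45 times the smaller. The control libraries held 45244430 and 35775040 expected counts, and the KCl 2 h libraries 25207561 and 26939393; the part of depth in the estimates was not tested.

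Leading the list was Osgep / Klhl33, with estimates of 1.07 and 4.12 at 2 h of KCl. Asna1 / Best2 followed with 1.33 and 1.34; Asna1 inserts tail-anchored proteins into membranes, and Best2 is a bestrophin chloride channel. Ubac2 / Timm8a2 had 0.915 and 1.28. Timm8a2 is a close copy of a mitochondrial import gene, so its reads are uncertain. Ifih1 / Fap had 0.896 and 0.792, where Ifih1 senses double-stranded RNA and Fap is a serine protease of activated fibroblasts. Mtch2 / C1qtnf4 had 0.624 and 0.913 and Nucb1 / Dhdh 0.274 and 1.09. The list of 8 closed with Fkbp5 / Tulp1 at 0.684 and 0.402 and D17Wsu92e / Spdef at 0.428 and 0.642. Spdef is an ETS factor of secretory epithelia.

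**Figure D1:**
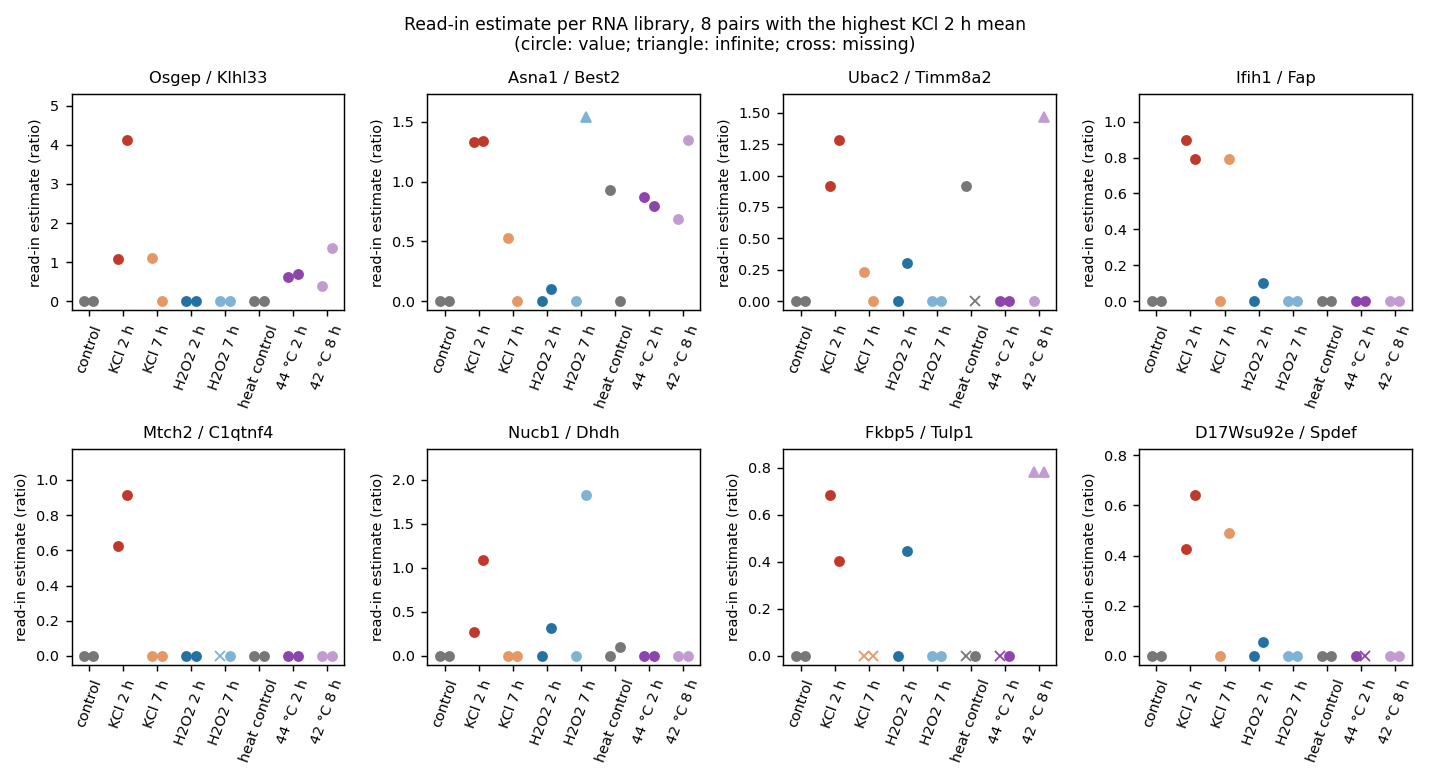
Deposited read-in estimate (vertical axis, a ratio) in each RNA library (points, 2 a group, 8 groups on the horizontal axis) for the 8 pairs with the highest mean at 2 h of KCl. Control values are 0 by the rule; Osgep / Klhl33 reached 4.12 in 1 KCl 2 h library and was above 0 in the 4 heat-treated libraries, while Mtch2 / C1qtnf4 was above 0 only at 2 h of KCl.

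Those estimates rested on very little RNA. Klhl33 had 3 and 4 expected counts at 2 h of KCl (0.16 and 0.06 TPM) against 1 and 2 in control, and 15 and 16 at 2 h of H2O2, where its estimate was 0. Tulp1 had 6 and 5 counts against 1 and 1. Timm8a2 had 17 and 9 against 1 and 1. Best2 was clearest, with 32 and 35 counts against 2 and 1, or 1.32 and 1.38 TPM against 0.05 and 0.03, and it had 0.72 and 0.91 TPM at 2 h of H2O2. For Spdef, RNA was higher at 2 h of H2O2 (1.53 and 1.88 TPM) than at 2 h of KCl (0.84 and 0.80 TPM), although its H2O2 estimates were 0 and 0.0565. Fap likewise had 0.78 and 0.66 TPM in H2O2 against 0.13 and 0.11 in KCl, and 0.12 and 0.05 in control. For Klhl33, Spdef and Fap an estimate that favoured KCl therefore did not go with more downstream RNA in KCl than in H2O2.

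Across the 111 members the estimate fell as the RNA level of the downstream gene rose, with Spearman's rho of -0.91 between mean TPM and mean estimate at 2 h of KCl (n = 111 pairs from the same 2 libraries, a description). Downstream genes of the 9 highest members had a median of 0.26 TPM, those between 0.1 and 0.5 a median of 1.28 TPM, those between 0.01 and 0.1 a median of 12.7 TPM, and those under 0.01 a median of 83.2 TPM. Of the 768 infinite estimates of the series, 714 stood where the downstream gene had a TPM value, and in all 714 it was 0. If the downstream level is a divisor in the estimate, the relation is in part built in, which was not tested because the formula was not given in the sources used here.

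**Figure D2:**
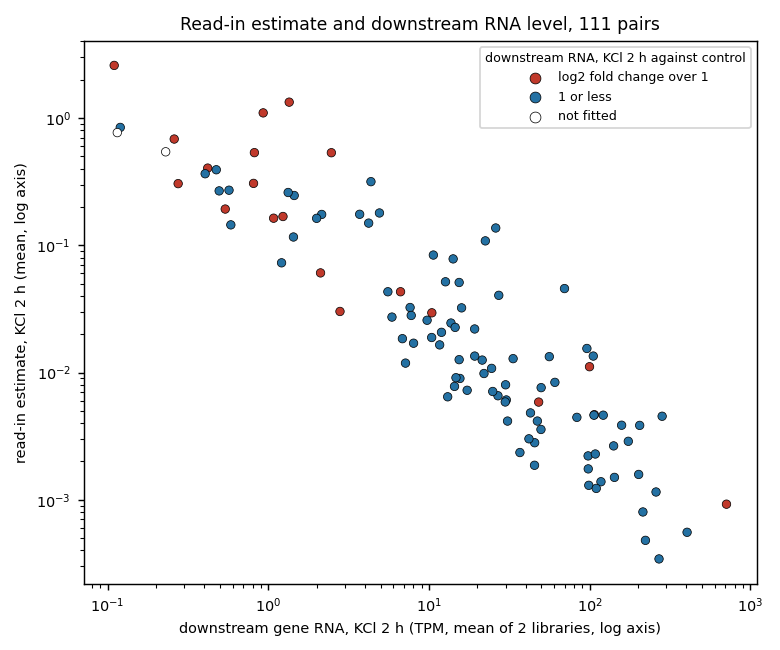
Each point is 1 of the 111 pairs, with the mean TPM of the downstream gene at 2 h of KCl on the horizontal axis and the mean read-in estimate on the vertical axis, both on log axes. Red marks downstream RNA with a log2 fold change over 1 against control, white genes that were not fitted; high estimates sit with genes near 0.1 to 1 TPM, and Akr1b3 is the red point near 710 TPM.

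The threshold of 0 admits pairs with very small ratios, which without the formula do not show how little read-in there was. Just inside it were Ergic1 / Atp6v0e (0.000366 and 0.000319), Fam83c / Eif6 (0.000348 and 0.00195) and Cyren&Wdr91 / Akr1b3 (0.00160 and 0.000247). Their downstream genes were abundant, with means of 270 (Atp6v0e), 259 (Eif6) and 710 TPM (Akr1b3) at 2 h of KCl. Just outside, 267 pairs were above 0 in only 1 KCl 2 h library, led by Pip4k2a / Carlr (5.15 and 0), Haus1 / Rnf165 (0 and 3.65) and Pdcd5 / Rgs9bp (3.29 and 0). A further 75 pairs failed because of 1 control library; the lowest control values were 4.22e-05 (Atat1 / Tubb5), 0.000189 (Txn2 / Myh9) and 0.000342 (Prr3 / Abcf1). Larger single-library estimates were thus left out than many that were let in.

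No member carried the authors' own read-in call in any of the 16 RNA libraries (0 of 111). It was carried by 5.45% of all 6399 pairs and 13 of the 247 pairs that gained in both treatments. In both KCl 2 h libraries 2.17% of all pairs carried it. Of the 2863 pairs at 0 in both control libraries, 8 (0.279%) carried it in at least 1 KCl 2 h library. Of the 329 that gained in H2O2 only, 1 carried it in at least 1 H2O2 2 h library. The absence is therefore not particular to the members. DoG calls, which mark that the upstream gene runs on past its end, were given to 38 and 40 members in the KCl 2 h libraries and to 18 in both. That share of 16.2% compares with 19.0% of all pairs. In the control libraries, where the estimate was 0, 30 and 28 members already carried a DoG call and 19 carried it in both, 17.1% against 14.3% of all pairs. A call in at least 1 of the 2 libraries was carried by 39 members in control and 60 at 2 h of KCl (54.1%), against 35.1% and 47.6% of all pairs. DoG calls shared by both replicates were thus about as many as in control, while calls in at least 1 replicate were more.

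The H2O2 2 h values of the 77 members with 1 positive library had a median of 0.0113 and a highest value of 0.446 (Fkbp5 / Tulp1). The KCl 2 h means given above were of similar size, and 45 of the 111 were under 0.01. The positive library was replicate 1 in 35 members and replicate 2 in 42. In 21 members the H2O2 value exceeded the lower of the 2 KCl 2 h values, so for those the KCl and H2O2 ranges overlap.

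Upstream genes, whose transcripts would have to run on for read-in, were mostly well expressed. Over the 109 with a row in the RNA tables, the median was 34.4 TPM in control, 37.4 TPM at 2 h of KCl and 34.9 TPM at 7 h, against 34.3, 30.9 and 32.3 TPM for the upstream genes of all pairs. Osgep was at 45.5 and 43.5 TPM in control and 51.1 and 50.5 at 2 h of KCl, and Asna1 at 185 and 177 against 176 and 163. Of the 105 upstream genes fitted, 35 were past edgeR's adjusted threshold upward and 22 downward at 2 h of KCl, where 27.2% and 27.0% of all genes were called (54.2% in either direction), and nothing is read from that count because the rule used these libraries. Of the 105, 6 had a log2 fold change over 1 and 2 were under -1, with no share over all genes computed. The largest was Fes, a tyrosine kinase, at 1.26 and 0.99 TPM in control and 46.5 and 41.3 TPM at 2 h of KCl, a log2 fold change of 5.34 ± 0.16 (SE). Its neighbour Man2a2, a Golgi mannosidase, was at 19.1 and 19.1 TPM in control and 14.8 and 13.5 TPM in KCl while the estimate rose from 0 to 0.106 and 0.0501. In 6 members the upstream gene itself was under 1 TPM at 2 h of KCl: Appbp2os, Fam83c, Ncmap, Clcn1, Capn12 (0 in both libraries) and Lrrc56. Whether counting used strand was not given in the sources used here, so for antisense genes such as Appbp2os and Lppos reads of the 2 strands cannot be told apart.

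Downstream genes were less abundant in control, with a median of 19.6 TPM over 111 genes, 15.6 TPM at 2 h of KCl and 19.3 TPM at 7 h, and 21 genes were under 1 TPM in control. For all pairs the downstream medians were 13.0, 10.9 and 10.7 TPM. At 2 h of KCl 41 of 109 fitted downstream genes were past the threshold upward and 26 downward, where 27.2% and 27.0% of all genes were called; the rule used these libraries and nothing is read from that count. A log2 fold change over 1 was seen in 20 and one under -1 in 5, a description, since the share of all genes past these limits was not computed. All 7 fitted genes of the highest band were higher in KCl, with a median log2 fold change of 2.91. The 45 genes of the lowest band had a median of 0.06. With a median of 0.045 TPM in control, genes of the highest band could be fitted chiefly through libraries where they were higher than in control. Tulp1 and C1qtnf4 of that band were not fitted. The band was also set by the KCl 2 h estimate, so nothing is read from these rises. Besides Best2 at 5.13 ± 0.57 (SE), the largest were Ankrd2, a muscle ankyrin repeat protein (0.04 and 0.11 TPM in control, 3.49 and 1.45 at 2 h of KCl), and Timm8a2. Upstream and downstream genes moved in the same direction in 54 of 103 pairs with both fits (36 higher, 18 lower), and the share over all pairs was not computed.

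At 7 h of KCl the estimate was above 0 in both libraries for only part of the members. The rule required values above 0 at 2 h of KCl, so a lower count in libraries outside the rule is in part built in. Both libraries were above 0 in 17 members (15.3%), 1 library in 35, and neither in 59. Among all pairs 25.1% were above 0 in both libraries, and among pairs at 0 in both control libraries 5.62%. After 7 h of H2O2 the count was 6 (5.41%), against 26.1% of all pairs and 6.95% of those at 0 in control. No member was above 0 in both libraries at both 7 h treatments. Of the 34 members at 0 in both H2O2 2 h libraries, only 2 were above 0 in both libraries at 7 h of KCl and 2 at 7 h of H2O2, and above 0.1 in both libraries were 1 and 0 of the 111. The pairs that gained in both H2O2 and KCl stood at 32.4% in KCl and 20.2% in H2O2 at 7 h, measured against the same control libraries as the members.

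Sema3f / Gnat1 had the highest 7 h values of the 17, at 0.368 and 2.21, after 0.260 and 0.353 at 2 h; Sema3f is a secreted guidance protein and Gnat1 the rod transducin alpha subunit. Gnat1 RNA at 7 h was at 0.20 and 0.08 TPM, near its control of 0.08 and 0.05 TPM, so the higher ratio stood over less downstream RNA than the 0.67 and 0.95 TPM of 2 h. Klc1 / Zfyve21 had 0.0548 and 0.0398 at 7 h, above its 0.0320 and 0.0325 at 2 h. Mapk12 / Hdac10 had 0.0263 and 0.0443 at 7 h against 0.0267 and 0.0295 at 2 h. For Fes / Man2a2 the value fell to 0.0132 and 0.0312. Bmpr2 / Fam117b (0.0121 and 0.0149), Lppos / Bcl6 (0.0113 and 0.0135), Sh3rf2 / Rbm27 (0.00980 and 0.0124) and Appbp2os / Ppm1d (0.0166 and 0.00364) complete the 8 highest. Of the 8 pairs that led at 2 h, none kept a finite value above 0 in both 7 h libraries: Osgep / Klhl33 had 1.098 and 0, Asna1 / Best2 0.526 and 0, and Ifih1 / Fap 0 and 0.792.

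Heat libraries played no part in the rule and have their own control. Both libraries were above 0 in 29 members (26.1%) at 44 °C and 31 (27.9%) at 42 °C, against 9 (8.11%) in the heat control. For all pairs the shares were 34.3%, 32.9% and 26.2%, and for pairs at 0 in the chemical control 12.1%, 13.1% and 5.66%. Both heat treatments were positive in 15 members and at least 1 in 45. Of the 67 members at 0 in both heat control libraries, 22 (32.8%) were above 0 in both libraries of at least 1 heat treatment. Among the 2672 pairs of the series at 0 in the heat control that share was 15.6%, and among the 132 such pairs that gained in both H2O2 and KCl 46.2%. The members' share lay between these others, and the differences between shares were not tested. Of the 34 members at 0 in both H2O2 2 h libraries 5 were above 0 in both libraries at 44 °C, 5 at 42 °C and 2 in the heat control, and above 0.1 were 4, 7 and 1 of the 111.

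**Figure D3:**
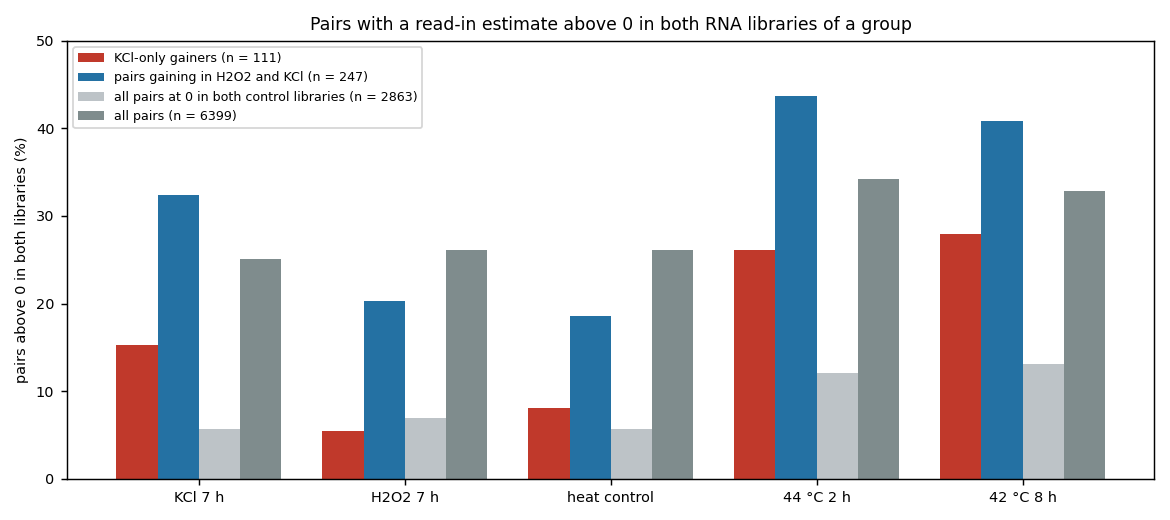
Percentage of pairs with a read-in estimate above 0 in both RNA libraries of a group (bars, no error bars because each bar is 1 count) for the 111 KCl gainers, the 247 pairs gaining in H2O2 and KCl, the 2863 pairs at 0 in both control libraries and all 6399 pairs. The KCl gainers stand at 26.1% and 27.9% in the heat treatments and at 15.3% and 5.41% at 7 h of KCl and H2O2.

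Osgep / Klhl33 was at 0 in both heat control libraries and above 0 in all 4 treated ones, with 0.610 and 0.686 (44 °C) and 0.392 and 1.37 (42 °C). Ubtd1 / Ankrd2 had the highest finite heat values, 0.1 and 2.20 at 44 °C and 0.561 and 2.20 at 42 °C, and its replicates differed by more than the groups. Infinite values stood in both 42 °C libraries of Fkbp5 / Tulp1 and in 1 of Ubac2 / Timm8a2. Asna1 / Best2 was at 0.867 and 0.798 at 44 °C and 0.683 and 1.34 at 42 °C, but 1 heat control library was at 0.931, so the groups overlap. Sema3f / Gnat1 likewise had 1.104 in 1 heat control library, against 0.581 and 0.245 at 44 °C and 0.649 and 0.849 at 42 °C. At 44 °C Ung / Acacb reached 0.141 and 0.288, and it was at 0 in the other 4 heat-series libraries. Mettl3 / Rab2b had 0.0238 and 0.0303 at 44 °C, with 0.0129 in 1 heat control library and 0 at 42 °C. At 42 °C Triap1 / Msi1 reached 0.179 and 0.310 and Rsu1 / C1ql3 0.0811 and 0.275. Triap1 / Msi1 also had 0.113 in 1 library at 44 °C. Rsu1 / C1ql3 also had 0.0736 in 1 library at 44 °C and 0.109 in 1 heat control library.

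A group of 10 members was at 0 or missing in each library of 7 h KCl, 7 h H2O2 and heat: Mtch2 / C1qtnf4, Whsc1 / Nat8l, Fam217b / Cdh26, Elmo2 / Slc35c2, Dopey1 / Rwdd2a, Slc39a14 / Ppp3cc, Vav2 / Sardh, Exoc6b / Cyp26b1, Arf1 / Guk1 and Tmem69 / Mast2. They were listed after their values were seen. Only Mtch2 / C1qtnf4 of them was among the 8 leading pairs, and 6 of the 10 were also at 0 in both H2O2 2 h libraries.

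RNA of the downstream genes under heat was tested with edgeR's quasi-likelihood test, with Benjamini-Hochberg adjustment over all genes and a threshold of 0.05. At 44 °C 39 of 107 tested rose and 37 fell, where 35.4% and 35.7% of all genes were called (71.0% in either direction). At 42 °C 33 rose and 35 fell of 107, against 31.7% and 31.9% (63.6%). Upstream genes gave 38 and 40 of 105 at 44 °C and 42 and 27 at 42 °C. The balance at 42 °C depended on the scaling: limma on log2(TPM + 1) called 23 downstream genes higher and 51 lower and 20 upstream genes higher and 50 lower. There the all-gene median log2 fold change moved from -0.01 to -0.16, and the members' medians were -0.17 (downstream) and -0.13 (upstream). For downstream genes the shares called were near the background. So was their median log2 fold change, 0.0011 against -0.00034 for all genes at 44 °C and -0.02 against -0.01 at 42 °C. Upstream genes at 42 °C were called higher in 40% and lower in 25.7%, with a median of 0.049 against -0.014 for all genes. That difference was not tested.

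Best2 and Gnat1 had the largest rises at both temperatures among the downstream genes tested other than Hspa1a. Best2 RNA was at 0.06 and 0.10 TPM in the heat control, rising to 0.68 and 0.90 (44 °C) and 1.45 and 1.63 (42 °C), on 2 and 3 counts in control and 22 to 51 in heat. Its log2 fold changes were 3.37 ± 0.47 (SE) and 4.56 ± 0.41, with edgeR adjusted p = 1.73e-05 and 3.06e-07. Gnat1 RNA went from 0.05 and 0.08 TPM to 0.57 and 0.55 (44 °C) and 0.43 and 0.42 (42 °C), a log2 fold change of 2.996 ± 0.50 (edgeR adjusted p = 8.84e-05) and 2.86 ± 0.52 (edgeR adjusted p = 0.000248). In both, each heat-treated library stood above both controls. At such low control levels a gene enters the test chiefly through libraries where it is high, which the adjusted p-values do not allow for. Nat8l, an N-acetyltransferase of neurons, rose by a log2 fold change of 1.84 ± 0.38 at 44 °C (edgeR adjusted p = 0.000573), and Sh2b2, an adaptor of receptor tyrosine kinases that is downstream in 1 member and upstream in another, by 1.53 ± 0.10 (edgeR adjusted p = 5.21e-09).

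Hspa1a, the inducible HSP70 chaperone and a textbook target of the heat shock factor, had 27.6 and 39.3 TPM in the heat control, which rose to 281 and 370 (44 °C) and 4469 and 4271 (42 °C). Its log2 fold changes were 3.23 ± 0.14 (edgeR adjusted p = 1.59e-10) and 7.22 ± 0.16 (edgeR adjusted p = 2.06e-13). Hspa1a has a near-identical copy in the genome, so its reads may be split. Its read-in estimates at 42 °C, with the neighbour D17H6S56E-5, were 0.000350 and 0.000311. They were 0.00116 and 0.000181 at 44 °C and 0 and 0.00310 in the heat control. If the downstream level is a divisor in the estimate, small ratios at such RNA levels do not show how little read-in there was. Read-in at Hspa1a was not tested.

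Downward at 44 °C, Cdh26, a cadherin, had a log2 fold change of -2.65 ± 0.59 (edgeR adjusted p = 0.00102). Aspn (asporin, a matrix proteoglycan), Sardh (sarcosine dehydrogenase), Bckdk (the kinase of branched-chain keto acid dehydrogenase) and Acta1 followed, between -1.30 and -1.06. Aspn was at 16.5 and 17.2 TPM in the heat control, lower in all treated libraries with 7.54 and 6.76 (44 °C) and 4.95 and 5.35 (42 °C). At 42 °C Cyp26b1, which breaks down retinoic acid, rose by 1.27 ± 0.08 (edgeR adjusted p = 5.74e-09) and Dusp2 by 1.24 ± 0.41 (edgeR adjusted p = 0.0167). Fap fell by 1.93 on the log2 scale (edgeR adjusted p = 0.000998), from 0.48 and 0.61 TPM to 0.13 and 0.16. Spata2l, Aspn, Def6 and the repressor Bcl6 also fell, by log2 fold changes of -1.54 to -0.96.

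Upstream, Ubap1l rose at both temperatures, from 0.25 and 0.50 TPM to 1.67 and 1.75 (44 °C) and 1.91 and 1.30 (42 °C), log2 fold changes of 2.11 ± 0.26 and 2.13 ± 0.26 (edgeR adjusted p = 4.23e-06 and 6.53e-06). Rsu1, a Ras suppressor bound to integrin complexes and the neighbour of C1ql3, was at 116 and 125 TPM in the heat control and 39.1 and 39.5 at 44 °C, -1.68 ± 0.05 (edgeR adjusted p = 8.61e-12). At 42 °C, where the Rsu1 / C1ql3 estimate was above 0 in both libraries, Rsu1 was at 110 and 110 TPM. Other upstream genes past the threshold were Appbp2os (1.63), Ncmap (-1.23) and Pkd2 (-1.19) at 44 °C, and Plcxd2 (1.39), Ptbp2 (1.00), Fam26e (-2.19), Ncmap (-1.36) and Lrrc56 (-0.95) at 42 °C, given as log2 fold changes. Over 101 pairs with both genes fitted, upstream and downstream RNA moved the same way in 51 at 44 °C and 55 at 42 °C. For all pairs this share was not computed.

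The 7 h treatments could be compared with each other, since neither was read by the rule. Between 7 h of KCl and 7 h of H2O2, 39 of 109 downstream genes were higher in KCl and 45 lower, against 37.4% and 41.0% of all genes (78.4% in either direction). Upstream genes were higher in 50 and lower in 28 of 105, with a median log2 difference of 0.22 against -0.05 for all genes. Akr1b3, aldose reductase, which makes the osmolyte sorbitol, had the largest rise in KCl over H2O2 among the downstream genes: control libraries held 199 and 200 TPM, the KCl libraries 723 and 697 (2 h) and 4030 and 4127 (7 h), and both H2O2 libraries of 7 h 127. The log2 difference was 5.03 ± 0.07 (edgeR adjusted p = 1.77e-15). Its read-in estimate in KCl was 0.00160 and 0.000247 (2 h) and 0.000474 and 0.000490 (7 h), among the lowest of the members.

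Aspn was at 2.69 and 2.82 TPM in control, and its 7 h libraries held 14.1 and 20 TPM in KCl and 0.72 and 0.75 in H2O2, a log2 difference of 4.55 ± 0.22 (edgeR adjusted p = 1.10e-10). C1ql3 (2.11), Hsd17b7 of sterol synthesis (2.05) and the kinase Lrrk2 (2.01) were also higher in KCl. Lower in KCl were Lrrc51 (-5.70), Dusp2 (-5.52), the laminin receptor Itgb4 (-4.29), the exchange factor Def6 (-3.93) and Fah, fumarylacetoacetate hydrolase (-3.79). Dusp2 had 0.09 and 0.06 TPM at 7 h of KCl, 3.42 and 4.46 at 7 h of H2O2 and 0.09 and 0.11 in control, with edgeR adjusted p = 8.81e-08 for the difference. Mean control RNA was also low for Lrrc51 (0.82 TPM) and C1ql3 (0.56 TPM). Genes this low can enter the test chiefly through libraries where they are high, which the adjusted p-values do not allow for. Fah had 7.61 and 8.20 TPM in KCl, 114 and 107 in H2O2 and 19.1 and 17.5 in control (edgeR adjusted p = 3.18e-13). Aspn and Fah thus lay on opposite sides of control in the 2 treatments, while the KCl and control libraries of Dusp2 overlapped. Upstream, Fes (3.62), Sh3rf2 (2.08) and Adamtsl3 (1.89) were higher in KCl, and Sh2b2 (-2.89), Triap1 (-1.68) and Zfp523 (-1.63) lower.

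Footprints show whether ribosomes were on the downstream mRNA. Of the 9 downstream genes with a mean estimate of at least 0.5, 6 had no footprint in either KCl 2 h library; Klhl33 and Spdef had none in any of the 10 footprint libraries, and Tulp1 likewise none. Best2 had 0 and 0.22 TPM at 2 h of KCl, a single count, and Gnat1 of the next band 0 and 0. C1qtnf4 had 0.35 and 0.34 TPM in KCl against 0.26 and 0 in control. In the band between 0.1 and 0.5, 4 of 22 genes had no footprint in KCl 2 h, and in both lower bands each gene had some. Of the 20 downstream genes with an RNA log2 fold change over 1 at 2 h of KCl, 13 had too few footprints to be fitted. For these the footprint depth cannot show a difference.

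Against control, footprints of 4 downstream genes rose and 7 fell at 2 h of KCl, of 88 tested, where 1.79% and 5.06% of all genes were called (6.86% in either direction). Hspa1a footprints went from 8.45 and 6.2 TPM to 99.1 and 114, a log2 fold change of 3.92 ± 0.34 (edgeR adjusted p = 7.34e-05). Akr1b3 went from 287 and 155 to 596 and 501 TPM, 1.37 ± 0.25 (edgeR adjusted p = 0.00666). The bZIP repressor Nfil3 (1.06 ± 0.28) and the RNA-binding protein Rbm27 (0.86 ± 0.18) also rose, with edgeR adjusted p = 0.0383 and 0.0124. Mast2, a microtubule-associated kinase, fell most: 6.33 and 6.66 TPM in control and 1.19 and 0.56 in KCl, -2.80 ± 0.38 (edgeR adjusted p = 0.00120), while its RNA was at 88.2 and 94.6 TPM in control and 108 and 104 in KCl. Msl2 (-1.81), the protease Mbtps1 (-1.73), the fucose transporter family member Slc35c2 (-1.70) and the phosphatase Phlpp2 (-1.25) fell too. With 1 library left out, 4 to 7 calls took the place of the 11: 7 without control replicate 1, 7 without control replicate 2, 5 without KCl 2 h replicate 1 and 4 without KCl 2 h replicate 2. With limma on log2(TPM + 1), 2 rose and 6 fell.

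Upstream, 2 genes rose (Rin2 at 0.98, Fcho2 at 0.89) and 4 fell of 93 tested at 2 h of KCl, the largest falls being Zfp646 (-1.72), D17Wsu92e (-1.47) and Rapgef1 (-1.45). D17Wsu92e is the upstream partner of Spdef. These 6 calls became 1 without control replicate 1, 3 without KCl 2 h replicate 1 and 0 without KCl 2 h replicate 2, and with limma on log2(TPM + 1) 0 rose and 3 fell.

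After 7 h of KCl 10 downstream genes rose and 12 fell, against 10.5% and 9.83% of all genes (20.4%). Akr1b3 reached 4051 and 4085 TPM of footprints, 4.25 ± 0.28 over control (edgeR adjusted p = 3.59e-06), close to its RNA change of 4.45 ± 0.06. Hspa1a stood at 84.6 and 94.2 TPM, 3.65 ± 0.34 (edgeR adjusted p = 2.90e-05). Ppm1d, a phosphatase of the p53 response, rose from 6.58 and 6.16 to 21.7 and 22.8 TPM, 1.83 ± 0.23 (edgeR adjusted p = 0.000290). Bcl6 (1.62) and Rbm27 (1.33) rose as well. Ppm1d, Bcl6 and Rbm27 are also among the 8 pairs with the highest 7 h estimates. Of the others in those 8, Zfyve21 (0.58), Fam117b (0.21), Hdac10 (-0.74) and Man2a2 (-1.30) were not past the threshold, and Gnat1 was not fitted. At 7 h of H2O2 the footprint log2 fold changes were 2.69 (Ppm1d), 1.02 (Bcl6) and -0.10 (Rbm27). Bckdk (-2.28), Slc35c2 (-1.90), Gmcl1 (-1.71), Sardh (-1.63) and Crls1, cardiolipin synthase (-1.49), fell. Without KCl 7 h replicate 1 the 22 calls became 14, and without replicate 2 they became 12. With DESeq2 10 rose and 6 fell.

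Upstream genes gave 10 higher and 8 lower of 93 at 7 h. Bmt2 (1.49), F11r (1.11) and Pkd2 (1.09) rose, and Zfp523 (-3.23), Cdk10 (-1.72) and Mettl3 (-1.32) fell. The 18 calls became 10 and 7 without control replicates 1 and 2, and 5 and 7 without KCl 7 h replicates 1 and 2.

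**Figure D4:**
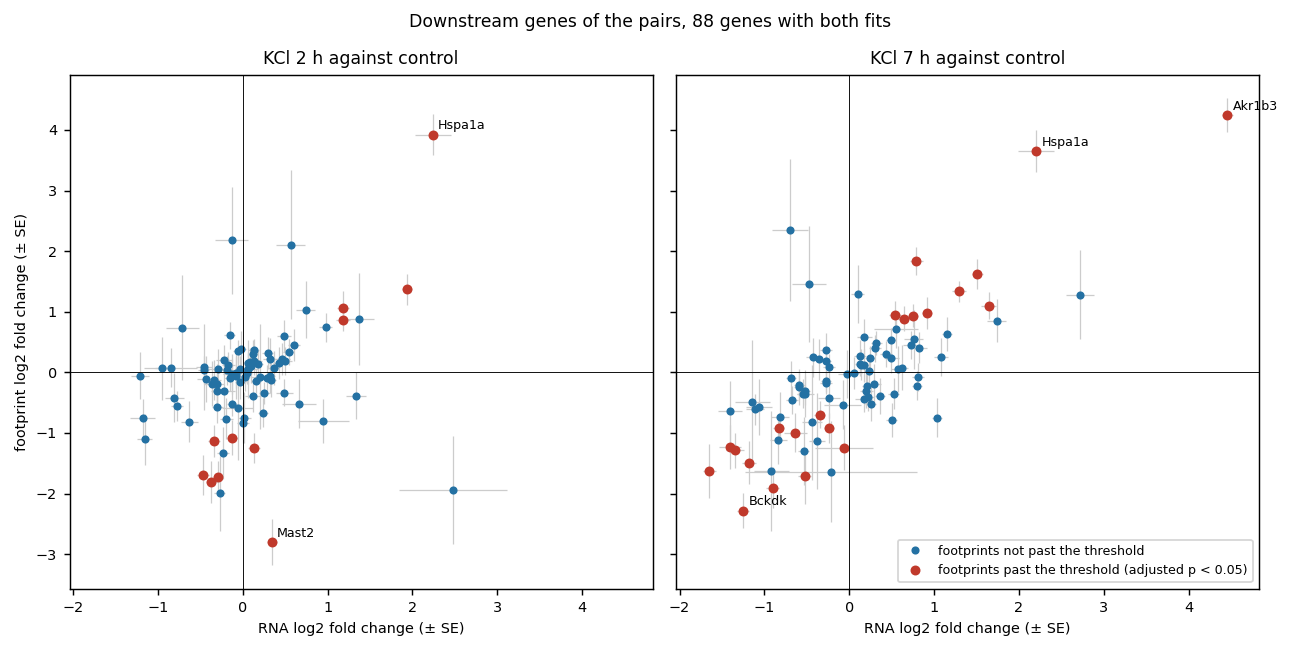
Log2 fold change of RNA (horizontal) against that of footprints (vertical) for the 88 downstream genes fitted in both, at 2 h and 7 h of KCl against control, with standard errors; red marks footprints past the adjusted threshold. Hspa1a is highest in footprints at 2 h (3.92), Akr1b3 is highest at 7 h with 4.45 in RNA and 4.25 in footprints, and Mast2 lies at -2.80 in footprints at 2 h with RNA at 0.34.

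RNA and footprint changes had the same sign in 55 of 88 downstream genes at 2 h and 68 of 88 at 7 h, measured in different libraries of the same treatments. For all genes this share was not computed. Of the 7 genes with an RNA log2 fold change over 1 at 2 h that had footprint fits, 3 also passed 1 in footprints. At 7 h this was 6 of 10. At 2 h of KCl the highest downstream RNA was that of Akr1b3, followed by Axl, a receptor tyrosine kinase (384 and 424 TPM), C1qbp, a mitochondrial matrix protein (277 and 288), Atp6v0e, a proton pump subunit (257 and 283), and Eif6, a ribosome assembly factor (254 and 264). Their footprints were 137 and 121 (Axl), 202 and 311 (C1qbp), 330 and 389 (Atp6v0e) and 300 and 368 TPM (Eif6), and Zyx, a focal adhesion protein, had 226 and 275.

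Between 7 h of KCl and 7 h of H2O2, footprints of 15 downstream genes were higher in KCl and 26 lower of 88, against 17.8% and 23.5% of all genes (41.2%). On log2(TPM + 1) the median of all genes moved from -0.06 to -0.18. Akr1b3 again led at 4.89 ± 0.29 (edgeR adjusted p = 1.94e-07), then Aspn (2.48), Snx7 (2.21), Zyx (1.48) and Lrrk2 (1.44). Itgb4 was lowest, at 0.19 and 0.10 TPM in KCl and 7.55 and 7.03 in H2O2, -5.46 ± 0.51 (edgeR adjusted p = 5.07e-06). Def6 (-4.87), Dusp2 (-3.75), Fah (-3.57) and the kinase Shpk (-3.39) followed. Akr1b3, Aspn and Lrrk2, and on the other side Itgb4, Def6, Dusp2 and Fah, were thus past the threshold in the same direction in RNA and in footprints. At 2 h of KCl mean footprint levels were only 0.12 (Itgb4), 0.505 (Def6), 0.535 (Dusp2) and 1.385 TPM (Shpk). Genes this low can enter the test chiefly through libraries where they are high, which the adjusted p-values do not allow for. Upstream 16 were higher and 20 lower of 93, with Sh3rf2 (2.30), Stag1 (1.51) and Tmem97 (1.23) highest and Sh2b2 (-3.31), Zfp523 (-2.55) and Plcxd2 (-2.45) lowest.

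**Figure D5:**
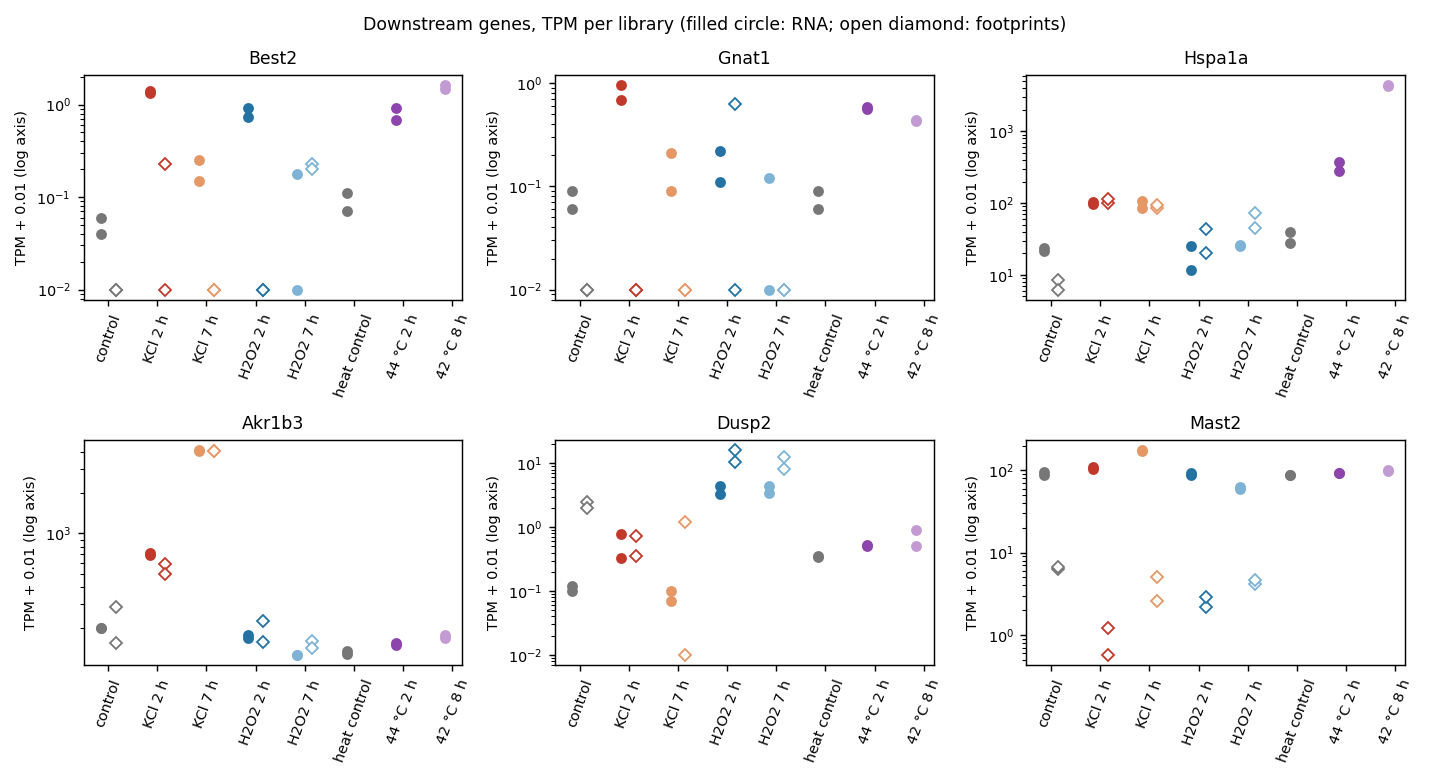
TPM plus 0.01 on a log axis in each library for 6 downstream genes (filled circles RNA, open diamonds footprints, 2 a group, no footprints shown for heat). Best2 and Gnat1 RNA is higher at 2 h of KCl and in heat, their footprints at 2 h of KCl were at 0 except for 0.22 TPM of Best2 in 1 library, Hspa1a RNA reaches 4469 TPM at 42 °C, Akr1b3 reaches 4127 TPM at 7 h of KCl, and Mast2 footprints drop to 1.19 and 0.56 TPM at 2 h of KCl.

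Translational efficiency, footprints relative to RNA, differed between 7 h of KCl and 7 h of H2O2 for 12 of 88 downstream genes, 2 higher and 10 lower in KCl, where 4.76% and 7.29% of all genes were called (12.1%). C1qbp was higher by a log2 value of 1.33 ± 0.25 (edgeR adjusted p = 0.00309) and the nucleolar protein Cebpz by 0.77 ± 0.19 (edgeR adjusted p = 0.0131). Man2a2 (-2.24), Cyp26b1 (-2.17), Mast2 (-1.73), Gmcl1 (-1.45) and Rint1 (-1.05) were lower. For Man2a2, RNA was at 13.0 and 12.7 TPM in KCl and 19.7 and 22.8 in H2O2, and footprints at 0.92 and 0.77 against 9.65 and 5.23. Without KCl 7 h RNA replicate 2 the 12 calls became 7, and without KCl 7 h footprint replicate 2 they became 5. Upstream genes gave 7 higher and 11 lower of 93, with Luc7l2 (1.26), Qtrt1 (1.19) and Ifih1 (1.17) highest and Plcxd2 (-1.29), Dgkh (-1.11) and Kmt2e (-1.06) lowest; the 18 calls became 10 and 9 without KCl 7 h RNA replicates 1 and 2, 8 without H2O2 7 h RNA replicate 1 and 10 without KCl 7 h footprint replicate 2. Upstream, limma voom gave 7 higher and 7 lower, and limma on log2(TPM + 1) 4 and 11.

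Around the members, RNA of 9 osmotic response genes rose at 2 h of KCl in 7 and fell in 1 by edgeR's adjusted threshold, with a median log2 fold change of 0.98, where 27.2% and 27.0% of all genes were called. At 7 h of KCl 9 of 9 rose (median 1.98), against 37.2% higher and 31.6% lower over all genes (68.8% in either direction); Akr1b3, a member, is one of them. At 2 h of H2O2 6 of the 9 rose and 2 fell (median 0.54), against 27.3% and 26.5% (53.9%). Of 30 genes for cleavage, polyadenylation and termination, 7 rose and 9 fell at 2 h of KCl and 9 rose and 7 fell at 2 h of H2O2, both near the share of all genes. At 7 h of KCl 20 rose and 5 fell. The treatments share their control libraries. Pcf11, which helps to release the polymerase, rose by a log2 fold change of 1.76 ± 0.09 at 2 h (edgeR adjusted p = 2.11e-09), and Ppp1r10 of the phosphatase that slows it by 1.55 ± 0.07 (edgeR adjusted p = 3.15e-10). At 2 h of H2O2 their values were 1.78 ± 0.09 and 1.73 ± 0.07. Papolg, a poly(A) polymerase, fell by 1.71 on the log2 scale and Cstf1 by 0.85 at 2 h of KCl, both past the threshold, and their values at 2 h of H2O2 were -0.28 and -0.53.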

How the data were processed

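Per the submitters' processing notes, STAR, RSEM, Bowtie and the mm10 build were used; roles, versions and the annotation were not given in the sources used here. The authors deposited expected counts and TPM values per gene for RNA and footprints. They also deposited, per pair and RNA library, a read-in estimate (a ratio, without its formula) and true or false DoG and read-in calls, described per the file headers. Of 102384 estimates, 768 were infinite (counted as above 0, never as finite) and 13222 missing. In the footprint tables, 12 columns matching no labelled sample were not used.

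The deposited expected counts were whole and were tested with edgeR 4.0.16 in R 4.3.3 (quasi-likelihood test, TMM, filterByExpr, groups of an experiment sharing 1 spread, Benjamini-Hochberg over all genes, threshold 0.05). Translational efficiency was an interaction term over RNA and footprint libraries. The alternatives were DESeq2 1.42.0, limma 3.58.1 on log2(TPM + 1) (voom for translational efficiency), no filter, only the groups compared, a replicate block and leaving out each library. For the estimates they were a threshold of 0.1, infinite values not counted and 2 narrower readings of the rule. The test was tried on simulated data. Library depths are given above.

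Named were the pairs with the highest estimates (8 at 2 h and 8 at 7 h of KCl, 6 in each heat), 3 just inside and 3 just outside each limit, up to 5 downstream and 3 upstream genes each way per test by log2 fold change, and the 5 downstream genes highest in RNA and in footprints. Members, lists and tests were chosen with earlier results of these data known. Upstream entries that join 2 symbols (2 of them) have no row of their own in the gene tables.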

Additional observations from a re-analysis of the deposited data

Results flagged for a closer look

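Among the genes named above, 15 moved one way in both libraries at 44 °C (2 h) and the opposite way in both at 42 °C (8 h), each against both heat control libraries. The difference itself was not tested. Given as the log2 fold change at 42 °C minus that at 44 °C, it was 2.22 for Acta1 (-1.06 at 44 °C, 1.16 at 42 °C), 1.83 for Sh3rf2, 1.43 for Snx7, 0.977 for Zyx, 0.864 for Hsd17b7, 0.547 for Rapgef1, 0.468 for Stag1, 0.432 for Luc7l2, 0.429 for Lrrk2 and 0.261 for Fcho2. In the other direction it was -1.9 for Spata2l (0.36 and -1.54), -1.55 for Bcl6 (0.59 and -0.96), -1.44 for Lrrc56, -0.587 for Rint1 and -0.411 for Dgkh. Acta1 and Snx7 fell at the shorter, hotter treatment and Bcl6 and Spata2l at the longer, milder one. Temperature and time differ together and cannot be told apart. Over all genes the share that moved in opposite ways was not computed, so the 15 are not read as a trait of the members. Some shifts were small, as for Fcho2 (-0.099 at 44 °C and 0.162 at 42 °C), and directions at 42 °C depended on the scaling.

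Footprints of 3 named genes lay on opposite sides of both control libraries at 2 h and 7 h of KCl. The 7 h minus 2 h difference in log2 fold change was 2.17 for Zfp646 (-1.72 at 2 h, 0.44 at 7 h), -0.825 for Fah and -0.526 for Rint1. These differences were not tested, both times share their control, and the share over all genes was not computed.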

How the results depend on the processing

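Of 68 recounts of called genes under another test, TPM values, no filter, only the groups compared or a replicate block, 67 stayed within 1.5 times the main count; the exception was the 6 upstream footprint calls at 2 h of KCl, which were 3 with limma on log2(TPM + 1). These are totals: at 42 °C the directions turned over with limma on log2(TPM + 1), from 33 higher and 35 lower to 23 and 51 (downstream) and from 42 and 27 to 20 and 50 (upstream). Upstream footprint calls at 7 h of KCl went from 10 higher and 8 lower to 7 and 10 with no filter and with only the groups compared, and those at 2 h from 2 and 4 to 1 and 4 with only the groups compared. Leaving out 1 library gave, for downstream and then upstream genes, 65 to 72 and 70 to 73 calls in RNA at 44 °C, 46 to 60 and 58 to 63 at 42 °C, and 77 to 85 and 70 to 73 for RNA of KCl against H2O2 at 7 h. In footprints it gave 4 to 7 and 0 to 4 at 2 h of KCl, 12 to 16 and 5 to 10 at 7 h, and 29 to 34 and 26 to 29 for KCl against H2O2. For translational efficiency it gave 5 to 11 and 8 to 13; the lone sample is then assumed to vary like the other groups.

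The member counts depend on the threshold. No H2O2 2 h library above 0 left 34 of the 111 pairs, and an estimate above 0.1 in both KCl 2 h libraries left 27. Above 0.1 in both libraries were 1 member at 7 h of KCl, 0 at 7 h of H2O2, 4 at 44 °C, 7 at 42 °C and 1 in the heat control. Of the 34 pairs, 2, 2, 5, 5 and 2 were above 0 in both libraries in that order, and of the 27 pairs 1, 0, 5, 8 and 1. Requiring only the other library gave 31 to 38, 18 to 25, 42 to 56, 48 to 49 and 25 to 26.

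Same-numbered samples deviated together with correlations of -0.05 to 0.12 in RNA and -0.38 to 0.42 in footprints. The 6 footprint comparisons without the H2O2 2 h group gave 0.20 to 0.42 and the 4 with it -0.38 to -0.05. With 2 numbers a group and no label that ties them, the numbers were not taken to pair the samples. With the replicate block the calls were 75 and 80 at 44 °C, 68 and 71 at 42 °C, 86 and 82 for RNA at 7 h, 11 and 6 in footprints at 2 h of KCl, 21 and 20 at 7 h, 42 and 37 for KCl against H2O2, and 13 and 19 for translational efficiency. Low footprint depth and near-silent downstream genes limit what can be seen at the leading pairs.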
